A study of Rattus norvegicus with 14 samples.

Results

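The abundant microRNAs (miRNAs) of rat pancreatic islets are described here on day 14 of pregnancy and in controls. They were taken as the miRNAs flagged as detected on all 8 islet arrays, which holds for 153 of the 350 rat miRNAs with a probe set on the array. Changes were weighed by signal as well as by fold, so that the make-up of the whole miRNA pool could be followed.

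Islets came from female rats at 14 days of gestation (4 arrays) and from control female rats (4 arrays). The sources used here do not give the strain or the age of the rats, and they name no allele or agent for either group. Arrays are labelled as biological replicates with no word on animals, so a p-value speaks only of the spread among the 8 arrays. The series also holds mRNA arrays of INS832/13 cells with miR-338-3p blocked, which are not used here.

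A miRNA is a short RNA that guides Argonaute proteins to messenger RNAs, mainly through its seed, bases 2 to 8 from the 5′ end. Its effect depends on how many copies a cell holds relative to its targets, so a modest change of an abundant miRNA can move more molecules than a large change of a rare one. In islets miR-375 and miR-7a are abundant and are known from mice as regulators of insulin secretion and beta-cell growth. Pregnancy is a state in which the beta-cell mass of rodents expands.

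The sequences below are from RefSeq (assembly GRCr8), written 5′ to 3′ with the seed in capitals. They show some of the miRNAs with the largest gains or losses of signal, close relatives of these, and miRNAs that passed the test. A mature sequence was matched for 126 of the 153 miRNAs. The first 5 lines show miR-23b, miR-27b and miR-24, which had the 3 largest gains of signal in pregnancy, and miR-23a and miR-27a, near-identical in sequence, whose means were lower.
miR-23b: aUCACAUUgccagggauuacc
miR-23a: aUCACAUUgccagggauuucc
miR-27b: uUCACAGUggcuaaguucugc
miR-27a: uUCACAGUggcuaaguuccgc
miR-24: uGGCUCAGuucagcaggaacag

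MiR-23a and miR-23b share their seed and differ by 1 base (U19A, counted from the 5′ end with miR-23a first), and miR-27a and miR-27b likewise (C19U). Such neighbours can bind each other's probes, so their levels are uncertain. MiR-23b, miR-27b and 1 copy of miR-24 lie on chromosome 17 from 1818672 to 1819425 on the minus strand. MiR-23a, miR-27a and the other copy of miR-24 lie on chromosome 19 from 40859481 to 40859798, also on the minus strand. Mature miR-24 has the same sequence from both loci, so the array cannot tell its source.

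The next lines hold the miR-29 and miR-7 families and miR-143, which carried the largest losses of signal.
miR-29a: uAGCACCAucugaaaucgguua
miR-29b: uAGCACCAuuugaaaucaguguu
miR-29c: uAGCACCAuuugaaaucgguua
miR-7a: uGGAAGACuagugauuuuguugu
miR-7b: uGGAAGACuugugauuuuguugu
miR-143: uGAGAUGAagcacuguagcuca

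MiR-29a and miR-29c differ at 1 base (C10U, miR-29a first), and miR-7a and miR-7b at 1 (A10U, miR-7a first). The last lines hold further miRNAs that passed the test between the groups, all of lower signal than those above. MiR-335 also passed, but no mature sequence was matched for it.
miR-338: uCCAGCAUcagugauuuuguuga
miR-322: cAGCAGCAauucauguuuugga
miR-30a*: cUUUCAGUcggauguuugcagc
miR-93: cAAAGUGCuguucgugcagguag
miR-325-3p: uUUAUUGAgcaccuccuaucaa

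The islet label was checked against marker miRNAs. Among those of beta cells and neuroendocrine cells, miR-7a was the brightest of the 153 on average and miR-375 was among the brightest 12, while miR-184, miR-9 and miR-124 of the same list were detected on no array. Of the markers of other tissues, miR-122 (liver), miR-217 (acinar), and miR-133a and miR-206 (muscle) were also detected on no array. Of the other muscle markers, miR-1 was detected on 1 array and miR-133b on 2. Other markers on these lists were present on all 8 arrays. They are miR-216a (acinar), miR-192 and miR-194 (hepatic and endodermal), and miR-143, miR-10b, miR-199a-3p and miR-199a-5p (stromal). Stromal miR-214 was detected on 7 arrays and miR-145 on 1. On the other side of the detection rule, 18 miRNAs detected on 4 to 7 arrays entered the test only, and 155 were detected on no array.

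The 153 abundant miRNAs held between 99.2% and 99.6% of the signal on each array, and 157 to 188 miRNAs were detected per array. The summed unscaled signal was 178563, 162042, 164090 and 229760 on pregnant replicates 1 to 4, against 222834, 148467, 181041 and 197118 on control replicates 1 to 4. The groups overlapped, and the log2 difference of their means was -0.03 (exact permutation test, 2-sided, p = 0.914, n = 4 per group, smallest possible p 0.0286). Since the same 100 ng of RNA entered each labelling, total signal cannot show a change of miRNA per cell. In all values below, each array was scaled by its 75th percentile over the 153 miRNAs.

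Pregnant replicate 2 and control replicate 2 stood apart in markers of other cells. The summed scaled signal of 5 leukocyte miRNAs was 653, 5133, 696 and 827 in pregnancy, against 868, 1083, 838 and 822 in control islets. The summed signal of 4 stromal and muscle miRNAs was 810.5, 1630.5, 785 and 1099.8 in pregnancy, against 2058, 6784, 1342 and 2015 in control islets. Leukocyte signal was thus high on 1 pregnant array, and the stromal sum on 1 control array, where miR-143 alone was 6189. MiR-10b of that list was also highest on control replicate 2 (257). MiR-199a-3p and miR-199a-5p were instead highest on pregnant replicate 2 (356 and 67.1, against 279 and 58.9 on control replicate 2). In such bulk samples a change in the number of cells of a type and a change of RNA per cell cannot be told apart.

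Erythroid and acinar markers varied as well. The sum of miR-144 and miR-451, abundant in red cell precursors, was 651, 1018, 732 and 1653 in pregnancy, against 266, 329, 732 and 457 in control islets. MiR-144 alone ran from 63.0 to 188 in pregnancy and from 19.4 to 58.3 in control islets, with no overlap. Acinar miR-216a was 26.4, 242, 25.9 and 192 in pregnancy, against 114, 312, 161 and 124 in control islets. The part of these cells in the results below was not tested, and results that rest on the arrays of replicate 2 are given with and without them.

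**Figure D1:**
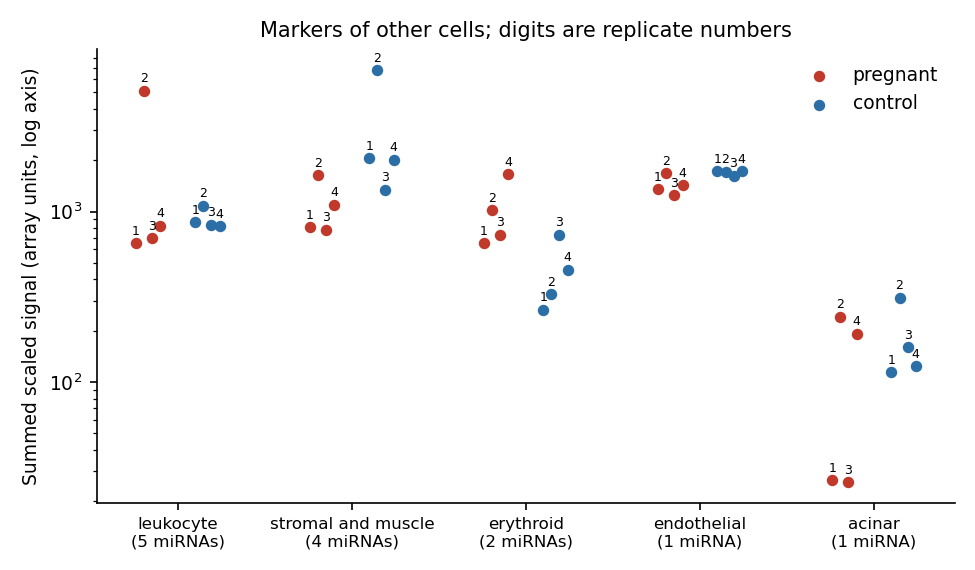
Summed scaled signal (array units, log axis) of marker miRNAs of 5 other cell types on each array, with pregnant arrays left of control arrays and the replicate number above each point. Pregnant replicate 2 has a leukocyte sum of 5133 and control replicate 2 a stromal sum of 6784, each far above the other arrays of its group. MiR-143 alone gives 6189 of that stromal sum.

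The pool was concentrated in few miRNAs, to the same degree in both groups. The brightest 10 miRNAs held 54.0 ± 2.20% of the signal in pregnancy and 53.7 ± 1.75% in control islets (SD, n = 4 each). Over all arrays 9 miRNAs held 50% of the pool and 48 held 90%. The effective number of miRNAs, the count of equally bright miRNAs that would give the same entropy of shares, was 44.1 ± 2.95 in pregnancy and 44.6 ± 1.38 in control islets. Neither measure separated the groups. A share of signal is not a share of molecules, because probes differ in response.

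The let-7 family, whose members restrain growth genes in many tissues, was the largest family. Its 8 members held 21.2 ± 0.597% of the pool in pregnancy and 21.5 ± 0.392% in control islets. MiR-29a, miR-29b and miR-29c held 12.2 ± 0.194% in pregnancy and 13.3 ± 0.648% in control islets. MiR-7a and miR-7b held 10.4 ± 0.946% in pregnancy and 11.03 ± 0.800% in control islets. For each of these families the shares overlapped between the groups.

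The miR-200 and miR-141 family, which keeps cells epithelial by repressing Zeb1 and Zeb2, held 9.62 ± 0.602% in pregnancy and 9.37 ± 0.302% in control islets. MiR-375 held 5.004 ± 0.524% in pregnancy and 5.11 ± 0.600% in control islets. Both differences were within the spread of a group. Of the large groups described here, only miR-23b, miR-27b and miR-24 had shares that did not overlap between the groups. This set was put together after its values were seen, as the largest gains, and that choice favours such a separation.

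**Figure D2:**
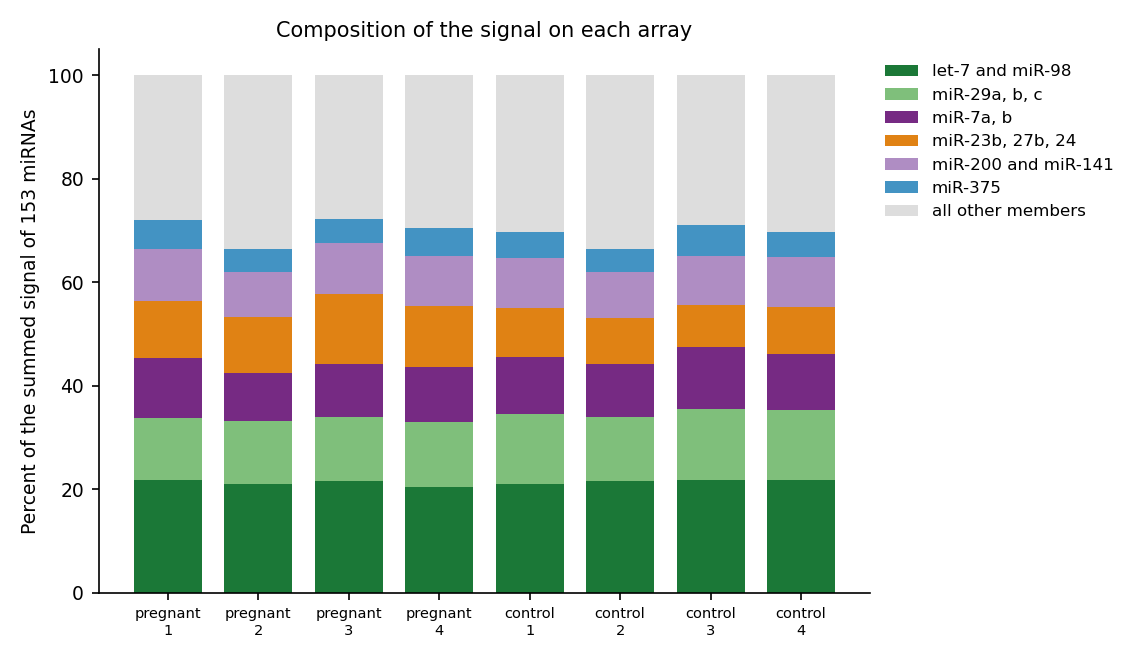
Percent of the summed signal of the 153 miRNAs held by 6 groups of miRNAs on each array, with the 4 pregnant arrays on the left and the 4 control arrays on the right. The miR-23b, miR-27b and miR-24 band, a set chosen after its values were seen, is 10.8% to 13.5% on pregnant arrays and 8.18% to 9.46% on control arrays. The let-7 band stays between 20.4% and 21.8% on all 8.

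The summed scaled signal of the 153 miRNAs was 182858 ± 3944 in pregnancy and 186530.0 ± 4658 in control islets (SD, n = 4 each), a change of -1.97% with overlapping groups. Under this small net change, 79 miRNAs had a higher mean in pregnancy and together gained 9031 units, and 74 had a lower mean and lost 12703 units. The net change hangs on the scaling. It was 9.35% with the 75th percentile over all 350 miRNAs, 11.4% with the median of the 153, and 0.0575% with total-signal scaling. Shares of the pool do not depend on the scaling.

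How far the make-up of 2 arrays differed was measured as the percent of the pool that would have to move from some miRNAs to others. Between a pregnant and a control array the median was 6.96% (range 5.16% to 9.31% over 16 pairs). Between pregnant arrays it was 5.72% (4.01% to 7.88% over 6 pairs), and between control arrays 5.09% (2.59% to 7.27% over 6 pairs). The ranges overlapped widely, so that much of the movement between the groups was of the size seen within them.

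The largest gains of signal were those of miR-23b, miR-27b and miR-24. In mice miR-24 helps to sustain insulin expression, and miR-27 is known as a repressor of PPARG in fat cells. The 3 were singled out after their values were seen. They gained 4883 units, which is 54.1% of the gross gain of all 153. Without 1 array the share ran from 45.2% (without pregnant replicate 3) to 58.6% (without pregnant replicate 2). It was 33.9% with the 75th percentile over all miRNAs, 31.6% with the median of the 153 and 50.5% with total-signal scaling. MiR-200c gained more than miR-24 with the 75th percentile over all miRNAs and with the median of the 153. MiR-142-3p gained more than miR-24 without pregnant replicate 1, 3 or 4 or control replicate 3.

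MiR-23b, the third brightest miRNA, had a scaled signal of 11669, 10454, 15100.5 and 11889.8 on pregnant replicates 1 to 4, against 10194, 9718, 8831 and 10354 on control replicates 1 to 4. All 4 pregnant arrays lay above all 4 control arrays, with pregnant replicate 3 the highest. Its log2 change was 0.32 (SE 0.12, limma adjusted p = 0.142), which did not pass the threshold of 0.05. Within slide rows 1 and 2 (read from the array names, which no label explains) it was 0.34 and 0.26. The only control array of row 1 is control replicate 2, and the only pregnant array of row 2 is pregnant replicate 1.

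MiR-27b was 4635, 4793, 5674 and 5427 in pregnancy, against 3699, 3741, 3369 and 3673 in control islets. It rose by 0.50 on the log2 scale (SE 0.09, limma adjusted p = 0.0204), with no overlap. MiR-24 was 3838, 3919, 4296 and 4290.0 in pregnancy, against 3163, 3483, 3001 and 3230.4 in control islets. It rose by 0.34 (SE 0.07, limma adjusted p = 0.0430), also with no overlap.

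As a share of the pool, miR-23b, miR-27b and miR-24 together were 10.99%, 10.8%, 13.5% and 11.7% on the pregnant arrays, against 9.46%, 8.86%, 8.18% and 9.15% on the control arrays. The means were 11.7 ± 1.22% in pregnancy and 8.91 ± 0.544% in control islets (SD, n = 4 each), a difference of 2.83 percentage points. Leaving out 1 array gave 2.25 to 3.14 points, and leaving out both replicates 2 gave 3.12. Within slide row 1 (3 pregnant and 1 control array) the difference was 3.13 points and within row 2 (1 pregnant and 3 control arrays) 2.07, and a fit with the row as a blocking factor gave 2.60. The share is a description with no test.

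MiR-23a and miR-27a, the counterparts at the second locus, had lower means in pregnancy and a summed difference of -515 units. MiR-23a was 1406, 1688, 1408 and 1519.9 in pregnancy, against 1858, 2167, 1658 and 1775 in control islets (log2 change -0.31, SE 0.10, limma adjusted p = 0.123). MiR-27a was 707, 943, 730.0 and 797 in pregnancy, against 908, 1102, 868 and 920.4 in control islets (log2 change -0.26, SE 0.12, limma adjusted p = 0.212). Each pair of groups overlapped through pregnant replicate 2, and neither miRNA passed the threshold.

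The ratio within an array does not depend on its scaling. The log2 ratio of miR-23b to miR-23a signal was 3.05, 2.63, 3.42 and 2.97 in pregnancy, against 2.46, 2.16, 2.41 and 2.54 in control islets. The log2 ratio of miR-27b to miR-27a signal was 2.71, 2.35, 2.96 and 2.77 in pregnancy, against 2.03, 1.76, 1.96 and 2.00 in control islets. Both ratios were higher on every pregnant array than on every control array, by 0.62 and 0.76 on average. MiR-23b and miR-27b were singled out for their gains, and that choice favours such a separation. These ratios mix amount with probe response, so only their difference between groups can be read.

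**Figure D3:**
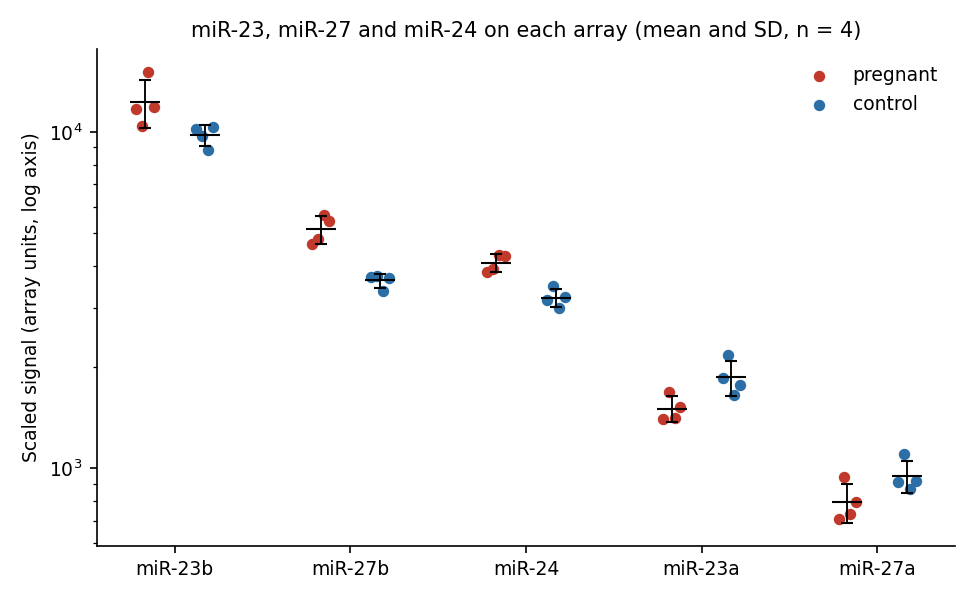
Scaled signal (array units, log axis) of miR-23b, miR-27b, miR-24, miR-23a and miR-27a on each array, with pregnant arrays left of control arrays and the mean and SD of 4 arrays as bars. MiR-23b, miR-27b and miR-24 lie higher on all 4 pregnant arrays, while the means of miR-23a and miR-27a are lower in pregnancy with overlapping groups.

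Other gains were smaller or rested on 1 array. MiR-142-3p, a blood cell miRNA, was 154, 3702, 169.7 and 269 in pregnancy, against 182, 362, 209.9 and 203 in control islets. Its mean difference of 835 units turned to -41.5 without pregnant replicate 2. MiR-451 was 588, 897, 661 and 1466 in pregnancy, against 247, 308, 673 and 418 in control islets (log2 change 1.14, SE 0.38, limma adjusted p = 0.123). MiR-451 overlapped between the groups through control replicate 3. MiR-144 did not overlap but did not pass the threshold (log2 change 1.70, SE 0.47, limma adjusted p = 0.0852).

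MiR-141, a member of the miR-200 family, was 3783, 3714, 3819 and 4121 in pregnancy, against 3648, 3255, 3686 and 3572 in control islets (log2 change 0.12, SE 0.07, limma adjusted p = 0.296). Its groups did not overlap. MiR-200c, encoded beside it, differed by 0.04 on the log2 scale (SE 0.09, limma adjusted p = 0.804). MiR-15b was 546, 1109.7, 555 and 572 in pregnancy, against 393, 473, 514 and 458 in control islets (log2 change 0.53, SE 0.24, limma adjusted p = 0.212). Its gain of 236 units became 98.0 without pregnant replicate 2.

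The 8 largest losses held 53.5% of the gross loss, and the 8 largest gains 78.0% of the gross gain. With the 75th percentile over all miRNAs the 8 largest losses held 68.0% and the 8 largest gains 58.2%, and 4 of the 8 miRNAs with the largest losses above (miR-7a, miR-29b, miR-375 and miR-22) had a higher mean in pregnancy. Of the 8 miRNAs with the largest losses 0 passed the limma threshold, and 3 had an unadjusted p under 0.05. Of all 171 tested, 4.68% passed and 24.6% had an unadjusted p under 0.05. The 8 were picked by their difference between the groups, and that choice favours a low p.

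MiR-143, a miRNA of smooth muscle and fibroblasts, had the largest loss (a mean difference of -1828 units, 14.4% of the gross loss). It was 608, 1012, 595 and 835 in pregnancy, against 1611, 6189, 997 and 1567 in control islets (log2 change -1.42, SE 0.53, limma adjusted p = 0.142). Control replicate 2 stood far above the others. Its high stromal sum of 6784 is mostly miR-143 itself, so that sum is no separate support. Without control replicate 2 the difference was -629 units, 5.80% of the gross loss. Within slide rows 1 and 2 the log2 change was -2.96 and -1.16, and the only control array of row 1 is control replicate 2.

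The miR-29 family, known in mouse islets to repress Slc16a1 and in many tissues collagen genes, lost 18.9% of the gross loss. MiR-29b was 12598, 12399.9, 13440.0 and 13301 in pregnancy, against 14507, 13357, 14461 and 14737 in control islets (log2 change -0.14, SE 0.06, limma adjusted p = 0.212). MiR-29a was 5907, 5885, 5869 and 6165 in pregnancy, against 6533, 6670.2, 6984 and 6722 in control islets (log2 change -0.18, SE 0.06, limma adjusted p = 0.123). MiR-29a did not overlap between the groups, while miR-29b overlapped through control replicate 2.

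Summed over the shared seed, miR-29a, miR-29b and miR-29c had a signal of 22399 ± 772 in pregnancy and 24799 ± 864 in control islets (SD, n = 4 each). These sums did not overlap (log2 change -0.15, SE 0.07, limma adjusted p = 0.249). As a share of the pool the family differed by -1.06 points, by -0.0586 within slide row 1 and by -1.50 within row 2. With the 75th percentile over all miRNAs, the log2 change of miR-29b turned to 0.0093.

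MiR-7a, the brightest miRNA, was 20115, 15545, 18124 and 19084 in pregnancy, against 18792, 18365, 21114 and 19447 in control islets (log2 change -0.10, SE 0.10, limma adjusted p = 0.592). The lowest value belonged to pregnant replicate 2, and the groups overlapped. Without that array the log2 change of miR-7a was -0.02, and the largest losses were those of miR-143, miR-29b, miR-29a, miR-21 and miR-125b-5p. MiR-7b was 953, 820.1, 963 and 795 in pregnancy, against 1053, 1054, 1361 and 1078 in control islets (log2 change -0.36, SE 0.11, limma adjusted p = 0.121). MiR-7b did not overlap between the groups. The log2 ratio of miR-7a to miR-7b signal was 4.37 ± 0.165 in pregnancy and 4.10 ± 0.100 in control islets, again with no overlap.

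MiR-125b-5p, a counterpart of the worm lin-4, was 1654, 1604, 1703 and 1431 in pregnancy, against 1908, 2405, 1993 and 2027 in control islets (log2 change -0.38, SE 0.10, limma adjusted p = 0.0717). Its highest pregnant array was below its lowest control array. MiR-375 was 10198, 7836, 8779 and 9819.7 in pregnancy, against 9108, 8614, 11031 and 9322 in control islets (log2 change -0.06, SE 0.11, limma adjusted p = 0.761). Its groups overlapped, and its mean difference of -361 units was smaller in size than the SD of either group. MiR-21 (log2 change -0.20, SE 0.23, limma adjusted p = 0.622) and miR-22 (log2 change -0.11, SE 0.08, limma adjusted p = 0.431) complete the largest losses, and both overlapped.

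**Figure D4:**
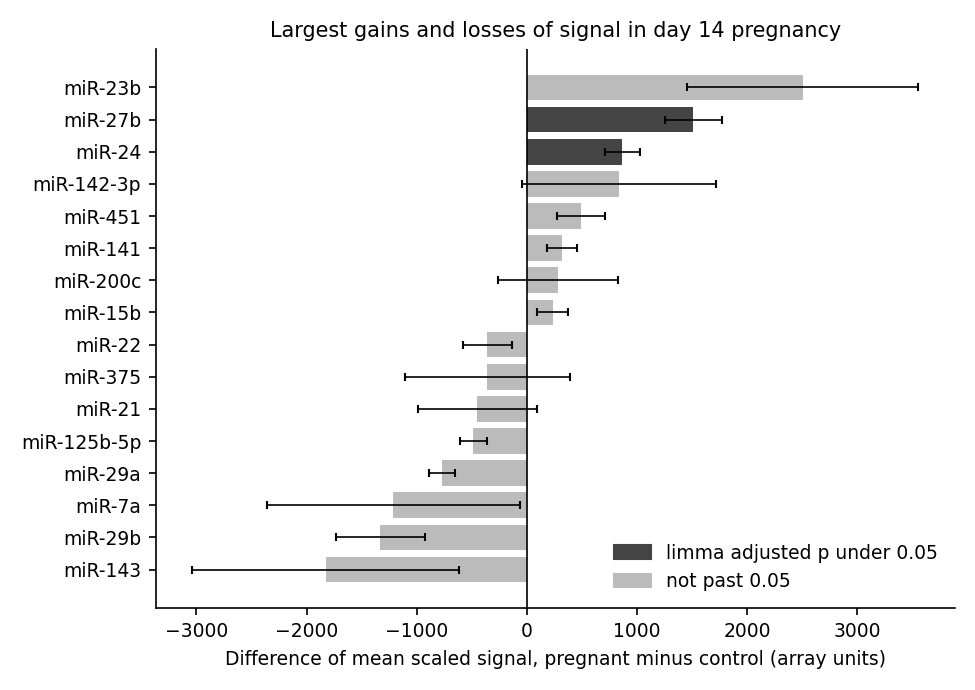
Difference of mean scaled signal, pregnant minus control (array units), for the 8 miRNAs with the largest gains and the 8 with the largest losses. Bars are differences with their standard error (n = 4 per group), and dark bars mark the miRNAs past a limma adjusted p of 0.05, which are miR-27b and miR-24.

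By the test, 8 of the 153 miRNAs were called, 4 higher and 4 lower in pregnancy. Over all 171 tested miRNAs 4.68% were called, 2.34% in each direction, and all 8 calls were among the abundant ones. An unadjusted p under 0.05 was found for 36 of the 153, against 24.6% of all tested. The groups did not overlap for 24 of the 153, against 14.6% of all tested. Of these 9 were higher and 15 lower in pregnancy, against 5.26% and 9.36% of all tested. These shares are near the background, since the 153 make up most of the tested miRNAs. The calls did not survive the loss of most single arrays. There were 0 when pregnant replicate 1 or 4, or control replicate 1, 2 or 4, was left out, 1 for control replicate 3 and 2 for pregnant replicate 3. Leaving out pregnant replicate 2 gave 16. With the slide row as a block there were 20 calls, 4 higher and 16 lower.

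The called miRNAs differed widely in signal. The 4 called higher held 5.19 ± 0.332% of the pool in pregnancy and 3.77 ± 0.171% in control islets. The 4 called lower held 0.226 ± 0.0190% in pregnancy and 0.374 ± 0.0251% in control islets. They accounted for 27.2% of the gross gain but for 2.24% of the gross loss.

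MiR-338, the miRNA blocked in the INS832/13 cells of the series, was 86.7, 122, 95.0 and 92.6 in pregnancy, against 202, 286, 167 and 219 in control islets. It fell by 1.13 on the log2 scale (SE 0.18, limma adjusted p = 0.0204), the largest change among the called miRNAs, and made up 0.939% of the gross loss. Its share of the pool was 0.0543% in pregnancy and 0.117% in control islets. Within slide rows 1 and 2 its log2 change was -1.48 and -1.17.

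MiR-335, which lies within Mest, an imprinted gene, was 115, 156, 153 and 157 in pregnancy, against 247, 237, 292 and 197 in control islets. MiR-322, the rodent counterpart of human miR-424, was 116, 111, 94.7 and 118 in pregnancy, against 157, 160.1, 155 and 154 in control islets. Neither overlapped between the groups. On the log2 scale the fall of miR-335 was -0.74 (SE 0.15, limma adjusted p = 0.0430), and that of miR-322 was -0.51 (SE 0.08, limma adjusted p = 0.0204). The less bright strand of the miR-30a hairpin, miR-30a*, was 56.2, 51.2, 62.6 and 64.5 in pregnancy, against 79.7, 88.0, 74.1 and 76.9 in control islets. It fell by 0.45 (SE 0.10, limma adjusted p = 0.0430).

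MiR-93, which shares its seed with miR-106b and miR-20a, was 43.5, 47.1, 37.3 and 49.3 in pregnancy, against 27.1, 29.4, 30.9 and 30.2 in control islets. It rose by 0.59 (SE 0.10, limma adjusted p = 0.0204). Set unscaled against the highest negative control feature of the same array, miR-93 lay above it on 0 of 4 pregnant and 1 of 4 control arrays. MiR-30a* lay above it on 1 of 4 pregnant and 4 of 4 control arrays. MiR-325-3p was 249.9, 204, 238 and 236 in pregnancy, against 176, 151.7, 166 and 185 in control islets, and rose by 0.45 (SE 0.09, limma adjusted p = 0.0430).

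**Figure D5:**
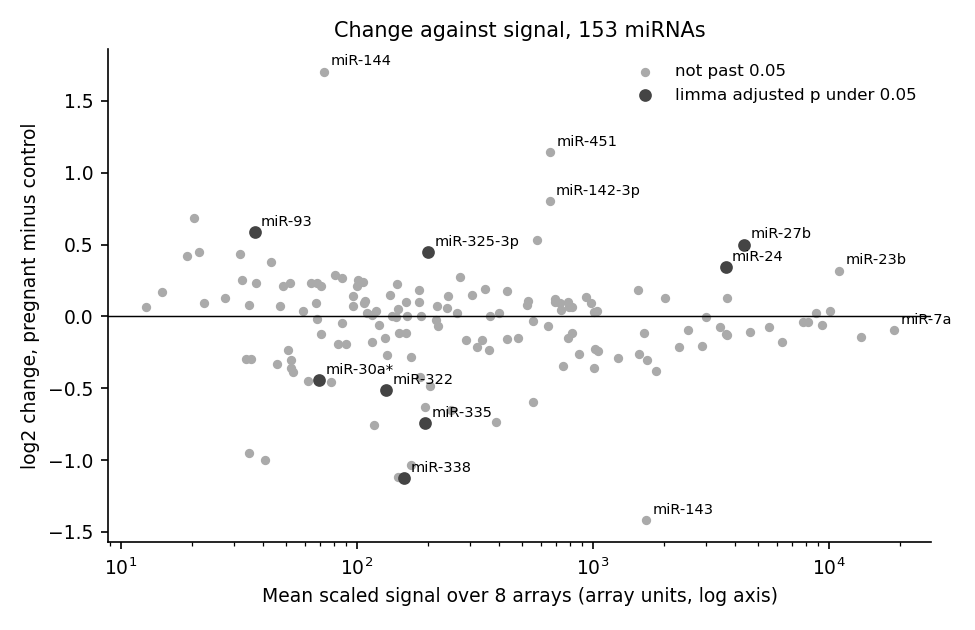
Log2 change, pregnant minus control, against mean scaled signal over the 8 arrays (array units, log axis) for the 153 miRNAs, with the 8 called ones dark. The called miRNAs higher in pregnancy include bright ones (miR-27b, miR-24), while the 4 called lower have a mean signal of at most 194.

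Fold changes were larger among dim miRNAs. When the 153 were ordered by mean signal and cut into 4 bins, the brightest bin of 39 held 86.7% of the pool, and the others of 38 each held 9.45%, 2.82% and 0.982%. The median absolute log2 change was 0.13, 0.15, 0.15 and 0.27 from the brightest to the dimmest bin. The median SD within a group was 0.11, 0.14, 0.20 and 0.22 in the same order. In the brightest bin 13 changes were positive and 26 negative (median -0.09), against a median of 0.0022 over all 153 and -0.02 over all tested. These signs depend on the scaling, which with the 75th percentile over all miRNAs moved the median of the 153 to 0.15.

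A log2 change of at least 0.5 in size was seen for 19 of the 153, against 16.4% of all tested, and these 19 held 3.29% of the pool. Weighted by signal, the mean absolute log2 change was 0.16. The dimmest members were miR-376b-5p, let-7d* and miR-539, with log2 changes of 0.42, 0.17 and 0.07, none past the threshold. Just outside the detection rule lay miR-214, miR-126*, miR-139-3p and miR-466b, whose mean signals of 42.9, 43.1, 26.99 and 28.1 in pregnancy and 59.4, 43.7, 49.0 and 42.4 in control islets exceed those of the dimmest members.

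The 126 miRNAs with a sequence fell into 96 seeds, 17 of them shared by several. The 27 miRNAs without one are left out of the seed sums, miR-30b-5p and miR-30d of the miR-30 family among them. A seed sum may therefore cover only part of a family. Of the seeds of all tested miRNAs with a sequence 0.935% passed, which is the seed of miR-338 alone (limma adjusted p = 0.0318). The summed seeds did not overlap between groups for 14% of them. MiR-27a and miR-27b summed to 5926 ± 481 in pregnancy and 4570.0 ± 249.9 in control islets (log2 change 0.37, SE 0.09, limma adjusted p = 0.0572). MiR-23a and miR-23b summed to 13784 ± 1894 in pregnancy and 11639 ± 773 in control islets (log2 change 0.24, SE 0.11, limma adjusted p = 0.249). Both sums lay higher on every pregnant array, although miR-27a and miR-23a had lower means. Neither passed the threshold.

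Within a seed the members did not always move together. In the seed of miR-15, miR-16 and miR-322, miR-15b and miR-16 had positive log2 changes (0.53 and 0.13), while miR-322, miR-195 and miR-497 had negative ones (-0.51, -0.65 and -0.63). The summed signal of this seed was 3265 ± 636 in pregnancy and 3069 ± 209 in control islets, with overlap (log2 change 0.07, SE 0.14, limma adjusted p = 0.751). Pregnant replicate 2 was the highest of the 8 arrays, at 4218. Without it the pregnant mean was 2947, and the log2 change turned to -0.06.

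Members encoded within 10 kb of each other were set side by side by their RefSeq positions, which gave 21 clusters with 63 miRNAs. In the miR-106b, miR-25 and miR-93 cluster all 3 log2 changes were positive (0.27, 0.14 and 0.59), with miR-93 called. In the miR-195 and miR-497 cluster both were negative (-0.65 and -0.63), and in the miR-192 and miR-194 cluster likewise (-0.48 and -0.39), with none called. In the large chromosome 6 cluster of imprinted miRNAs 14 of 15 were positive, with a median of 0.10 and a highest of 0.45. That median is smaller than the 0.15 by which the scaling moves all values. Within slide row 1 all of this cluster but miR-494 were positive. Within row 2 miR-376a, miR-410, miR-300-3p, miR-329, miR-369-5p and miR-154 were negative (-0.16 to -0.07), and the rest were positive. For 12 hairpins both strands were among the 153, and the sign was shared in 8. MiR-30a* was called lower, and the log2 change of miR-30a was -0.35 (SE 0.09, limma adjusted p = 0.0717).

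The list of beta-cell and neuroendocrine miRNAs has 9 abundant members, of which 1 fell (miR-338) and 8 did not pass, with a median log2 change of -0.10. Of the 7 in the miR-17/92 and related clusters, which are known to promote cell proliferation, 1 rose (miR-93) and 6 did not pass, with a median of 0.24, which was -0.0032 without pregnant replicate 2. Of the 7 in the miR-30 family 1 fell (miR-30a*) and 6 did not pass, with a median of -0.03. Among the 5 in the miR-23/27/24 clusters 2 rose (miR-27b and miR-24), with a median of 0.32, and in the miR-15/16 seed family 1 of 5 fell (miR-322), with a median of -0.51. Of all 171 tested 4.68% were called, and their median was -0.02.

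The other lists had no call in the limma fit. Of all 171 tested, 24.6% had an unadjusted p under 0.05. Among the 5 in the miR-99/100 and miR-125 families 3 had an unadjusted p under 0.05 (miR-99a, miR-100 and miR-125b-5p, each negative), and the list's median was -0.24. Of the 8 let-7 miRNAs 1 had an unadjusted p under 0.05 (let-7i), of the 4 miR-29 strands 1 (miR-29a), of the 3 in the cluster of miR-182, miR-183 and miR-96 1 (miR-182), and of the 5 in the miR-200 family 0. In the lists of miR-26, of miR-103 and miR-107, of miR-148b and miR-152, of miR-181 and of miR-21 there were 0 each. Of the 15 markers of stromal, erythroid, leukocyte, endothelial, acinar and hepatic cells 0 passed the limma test and 6 had an unadjusted p under 0.05. Of these 6, miR-144 and miR-451 were higher in pregnancy, and miR-143, miR-10b, miR-126 and miR-192 were lower.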

How the data were processed

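MiRNAs were measured with 1-colour rat miRNA arrays, on 4 arrays of islets of pregnant (day 14) rats and 4 of islets of control rats, from 100 ng of total RNA each. Per the file headers the authors deposited raw intensities, 1 per miRNA and array, and flags of detection. Their deposited log2 values, normalized between arrays, served as an alternative. Scanner and software are not stated in these sources.

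For each array the 75th percentile was taken over the 153 miRNAs flagged on every array. Intensities were divided by it and multiplied by the mean percentile of the 8 arrays. The floor before log2 was 0.810, the smallest scaled value with a detection flag, and no value of the 153 reached it. All 171 miRNAs flagged on 4 or more arrays were fitted with limma 3.58.1 (R 4.3.3, lmFit with eBayes, 2-sided, without a block). P-values were adjusted by Benjamini-Hochberg over all 171, with a threshold of 0.05. Signals summed by seed were fitted alike. Shares and gains are descriptions, computed with Python 3.11.15. The number of arrays limits the precision.

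Named miRNAs are the 12 brightest, the 8 largest gains and losses of signal, every called one, the 3 dimmest, the brightest 2 of each list and 4 non-members. Others, given as parts of a family or cluster, were chosen after their values were seen. Members, lists and tests were chosen with earlier results of these data known. The fit was tested on simulated data. Alternatives were other scalings, filters, floors and priors, blocks for replicate number and slide row, and leaving out arrays. Leaving out both arrays of replicate 2 was chosen after seeing the data.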

Additional observations from a re-analysis of the deposited data

Results flagged for a closer look

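Of 168 groups of 4 values examined, 14 held 1 array whose gap to the next, relative to the group's range, was above Dixon's critical value, where chance gives about 1 in 20. Pregnant replicate 2 and control replicate 2 account for 4 each.

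Pregnant replicate 2 stood high for miR-142-3p (3702, against 154 to 269 on the other pregnant arrays), miR-15b (1109.7, against 546 to 572), miR-199a-3p (356, against 92.2 to 128) and miR-181a (149, against 39.5 to 52.9). MiR-142-3p is a leukocyte miRNA and miR-199a-3p a stromal one. The part of other cells in these values was not tested.

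Control replicate 2 stood high for miR-143 (6189, against 997 to 1611 on the other control arrays, or 3.24% of the pool, against 0.537% to 0.893%), miR-142-3p (362, against 182 to 209.9) and miR-466b (80.7, against 28.5 to 31.5).

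The remaining values were spread over other arrays. MiR-29a was 6165 on pregnant replicate 4, against 5869 to 5907 on the other pregnant arrays. MiR-335 was 115 on pregnant replicate 1, against 153 to 157. The share of miR-322 was 0.0509% on pregnant replicate 3, against 0.0627% to 0.0640%. MiR-126 was 1626 on control replicate 3, against 1719 to 1727 on the other control arrays. MiR-106b was 209.9 on control replicate 1, against 256 to 264, and the let-7 and miR-98 share was 20.9% there, against 21.7% to 21.8%.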

How the results depend on the processing

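The main count of 8 calls became 2 with the 75th percentile over all miRNAs or the median of the 153, 5 with the authors' deposited normalized values (1 higher, 4 lower), 20 when slide row was a block, and 0 with no scaling (16 unadjusted p under 0.05) or no detection filter (34 unadjusted). Without 1 array it ran from 0 to 16. Total-signal scaling, a floor of 1 and a filter of 1 detected array each gave the same 8. Quantile normalization gave 9 (3 higher, 6 lower), a trended robust prior 11, and leaving out both replicates 2 gave 11. Of the 8 main calls these fits held 4, 7 and 5 in that order, the authors' values 2 and the slide row block 7. The called miRNAs thus changed even where the count stayed close. Deviations from the group mean on same-numbered arrays had r = -0.144, 0.168, -0.282 and -0.486. Arrays of different numbers had r from -0.63 to 0.55, so these values cannot settle whether the numbers pair arrays. The replicate block gave 7 calls, 4 of them among the main 8, and 3 seeds. The called seeds (1) became 5 with total-signal scaling and 0 to 11 without 1 array. The change of the summed signal (-1.97%) became 9.35% and 11.4% with the 75th percentile over all miRNAs and the median of the 153, and the change of the miR-23b, miR-27b and miR-24 signal (29.4%) became 44.8% and 47.8%. The log2 difference of total signal ran from -0.14 to 0.06 without 1 array, and was 0.027, 0.021, 0.060 and 0.0010 without pregnant replicates 2 and 3 and control replicates 1 and 4. MiR-338 was called in 14 of 22 fits (adjusted p 0.0149 to 0.0753), miR-93 in 13, miR-322 in 10, miR-27b and miR-325-3p in 9 each, miR-24 in 8, miR-335 in 7 and miR-30a* in 6.

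Of 1155 values of named miRNAs under alternatives 62 changed sign, over 20 miRNAs, none of them among the 8 called. A further 10 values were exactly 0 after quantile normalization or in the authors' values. The largest main change among these was that of miR-142-3p. With the 75th percentile over all miRNAs, which moves every log2 change by the same amount, miR-7a stood at 0.053, miR-29b at 0.0093, miR-375 at 0.093, let-7c at 0.11, let-7a at 0.11, let-7b at 0.074, miR-22 at 0.038, miR-26a at 0.078, miR-26b at 0.15, miR-148b-3p at 0.15, miR-152 at 0.033 and miR-126* at 0.12. With the median of the 153 they stood at 0.075, 0.031, 0.12, 0.14, 0.13, 0.096, 0.060, 0.10, 0.17, 0.17, 0.055 and 0.14 in the same order, and miR-342-3p at 0.0075. Total-signal scaling gave miR-26b 0.028 and miR-148b-3p 0.028. Quantile normalization and the authors' values each gave miR-200c -0.033 and miR-152 0.045, and miR-126* 0.16 and 0.10. The slide row block gave miR-375 0.043, miR-19b -0.078, miR-26b 0.015 and miR-148b-3p 0.049. With both replicates 2 left out miR-142-3p stood at -0.046, miR-19b at -0.070, miR-539 at -0.027, miR-26b at 0.0041 and miR-148b-3p at 0.0077. Without 1 array in turn, 10 of these miRNAs took both signs: miR-142-3p ran from -0.26 to 1.27 and miR-19b from -0.15 to 0.30, both negative only without pregnant replicate 2, and miR-200c ran from -0.00062 to 0.11, miR-375 from -0.11 to 0.016, let-7f from -0.0031 to 0.061, miR-539 from -0.16 to 0.22, miR-183 from -0.013 to 0.17, miR-30d from -0.0049 to 0.051, miR-26b from -0.037 to 0.044 and miR-148b-3p from -0.043 to 0.049, as did the non-member miR-126* (-0.15 to 0.086). The cause of these changes was not tested, and leaving out an array shows only that a value rests on it. Signals near the negative controls limit what can be read of the dimmest miRNAs.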
